A study of Homo sapiens with 4 samples.

Results

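The 9 genes studied here carry the type I interferon signal from the cell surface to the nucleus, and they were followed in RD rhabdomyosarcoma cells: the receptor genes IFNAR1 and IFNAR2, the kinase genes JAK1 and TYK2, the transcription factor gene STAT2, and the interferon regulatory factor genes IRF1, IRF3, IRF7 and IRF9. They were chosen by symbol, and all 9 were found among the 18375 genes of the deposited table. RD is an established line of fusion negative rhabdomyosarcoma, a soft tissue tumour with features of skeletal muscle. The resistant group (2 libraries) came from RD cells selected with vincristine, a tubulin-binding drug that stops assembly of the mitotic spindle. Selection began at 1 to 1.5 nM, a dose lethal to roughly 80 to 90% of the population, and went on for 9 to 12 months in dose steps of 10 to 20%, until the half-maximal inhibitory concentration had gone up at least 100-fold. The parental group (2 libraries) was untreated RD cells, and the labels give the genotype of both groups as wild type. The labels mention no interferon treatment of either group. Whether the 2 libraries of a group came from separate cultures or selections is not stated, so every p-value rests on the spread of these libraries alone, and that spread may be technical.

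Type I interferons bind a receptor of 2 chains, encoded by IFNAR1 and IFNAR2, whose inner ends hold the tyrosine kinases TYK2 and JAK1. The kinases phosphorylate STAT proteins, and STAT2, a second STAT protein and IRF9 form the complex ISGF3, which binds interferon-stimulated response elements in promoters of antiviral genes. IRF3 and IRF7 act upstream of the ligand, since sensors of viral nucleic acid activate them to switch on interferon genes. IRF1 drives genes of the interferon gamma response, and STAT2, IRF7, IRF9 and IRF1 are themselves induced by interferons in many cell types.

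Poly(A)-selected RNA was sequenced, and levels are normalized read counts, the gene counts that the authors divided by one size factor per library. The libraries held 58861281 and 67270948 reads in resistant cells and 67690557 and 65818879 in parental cells, over the genes of the table. Of 9 muscle markers of this tumour, 7 were measured, and their summed normalized counts were 164311 and 168699 in resistant cells and 94693 and 94147 in parental cells. The most abundant, CHRNA1, the gene of a muscle acetylcholine receptor subunit, had 56412 ± 86.2 normalized counts in resistant and 37826 ± 470 in parental cells (errors are SD over the 2 libraries of a group throughout). Of 15 blood cell markers 4 were measured, with sums of 98.5 and 116 in resistant cells and 75.4 and 76.5 in parental cells, and CD14 was the most abundant of them (42.1 ± 10.6 in resistant and 29.4 ± 0.807 in parental cells). PTPRC, the defining marker of blood cells, was looked for but not found by symbol among the genes measured, whose smallest mean value was 9.98. Of 5 endothelial markers only TEK was measured, with 1709.8 ± 27.4 normalized counts in the resistant group and 199 ± 15.7 in the parental group. In bulk RNA, a change in the number of cells of one kind and a change in RNA per cell cannot be told apart.

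IFNAR1, IFNAR2, STAT2 and IRF7 rose in resistant cells, TYK2 and IRF3 fell slightly, and JAK1, IRF1 and IRF9 did not pass the test. The 4 that rose were higher by 1.41 to 1.86-fold, and the 2 that fell were lower by about 10% (percent changes of -10.3 for TYK2 and -9.96 for IRF3). All 9 genes passed the filter on low values, a normalized count of at least 10 in at least 2 libraries. The test was limma on the log2 of the normalized count plus 1, fitted across 18330 genes with Benjamini-Hochberg adjustment and a threshold of 0.05. By that test 32.7% of all genes were higher and 34.2% lower in resistant cells, together 66.9%. Against that background, 4 higher and 2 lower of 9, or 66.7% called, is the share found among genes at large. The median log2 fold change of the 9 genes was 0.14, and that of all genes 0.00427. With a change above 1.2-fold required (limma treat), 4 of the 9 genes were higher and 0 lower, against 18.4% and 18.6% of all genes. With edgeR at an assumed dispersion of 0.01, a wider spread than these libraries show, 4 were higher and 0 lower, against 22.2% and 21.2% of all genes. Resistant and parental values did not overlap for 8 of the 9 genes, compared with 82.1% of all genes. The authors' deposited table gives the same direction for all 9 genes, and its adjusted p is below 0.05 for the same 6.

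**Figure D1:**
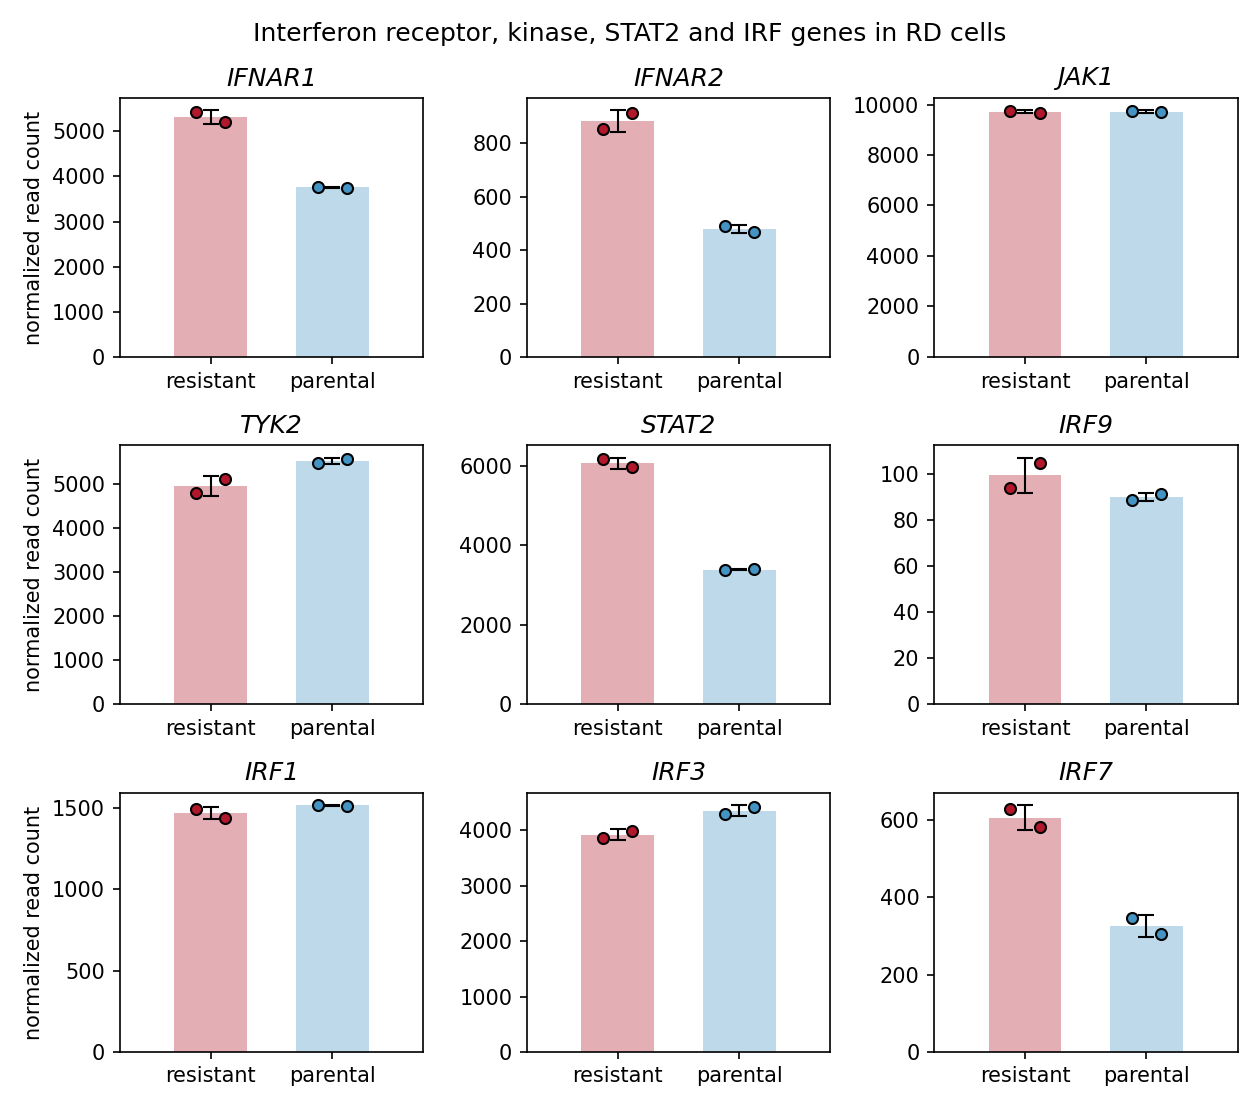
Normalized read counts (vertical axes, each from 0) of the 9 genes in the resistant group (left bars) and the parental group (right bars). Bars are means, error bars SD and points the 2 libraries of each group; the bars of IFNAR1, IFNAR2, STAT2 and IRF7 are higher in resistant cells, with no overlap of points, and those of JAK1 are level.

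Both chains of the type I receptor rose. IFNAR1, the chain that holds TYK2, had 5419 and 5203 normalized counts in resistant libraries 1 and 2, against 3763 and 3749.9 in parental libraries 1 and 2. Each resistant library was above each parental one, and the parental pair lay closer together than the resistant pair. The means were 5311 ± 153 in resistant and 3756 ± 9.14 in parental cells, and the log2 fold change was 0.50 (SE 0.04, limma adjusted p = 3.97e-12), or 1.41-fold with a 95% interval of 1.34 to 1.49. IFNAR2, the chain that binds the ligand most tightly and holds JAK1, had 855 and 912 normalized counts in resistant libraries, against 490.2 and 468 in parental libraries. The 2 groups were again well apart. Its means were 883 ± 40.1 in resistant and 479 ± 15.5 in parental cells, which gave a log2 fold change of 0.88 (SE 0.07, limma adjusted p = 2.33e-11), or 1.84-fold with an interval of 1.66 to 2.04. Per kilobase of merged exons, the level of IFNAR1 was 4.64 and 4.18 times that of IFNAR2 in the resistant libraries and 5.62 and 5.86 times in the parental ones. The receptor mRNAs thus stood closer to each other in resistant cells, a difference that was not tested. The size of these ratios also depends on how reads in exons that IFNAR2 shares with another gene were counted.

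The receptor genes are neighbours on chromosome 21 of GRCh38, on the plus strand, with IFNAR2 (ENSG00000159110) from 33229901 to 33265675 and IFNAR1 (ENSG00000142166) from 33324477 to 33359862 by GENCODE 29. Between them lies IL10RB, from 33266358 to 33310187, and after them IFNGR2, from 33402896 to 33479348. Exons of IFNAR2 share 44.2% of their bases with a read-through gene on the same strand, AP000295.1, and 39.1% with the antisense gene IL10RB-DT, and no strand setting is given in the sources used here, so the count of IFNAR2 is uncertain. IL10RB-DT had 31.6 ± 2.80 normalized counts in resistant and 11.3 ± 0.471 in parental cells, which is small beside IFNAR2. AP000295.1 was not among the genes measured. No exonic base of IFNAR1 is shared with another gene. IL10RB, the shared chain of the interleukin 10 and interferon lambda receptors, shares 38.1% of its exonic bases with the same read-through gene.

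Of 3 other interferon receptor chains that reached the filter on low values in both groups, 2 rose and 1 did not pass, where 32.7% of all genes rose. IL10RB had 1132 ± 20.2 normalized counts in resistant and 876 ± 7.68 in parental cells (log2 fold change 0.37, SE 0.06, limma adjusted p = 4.08e-06). IFNGR2, a chain of the interferon gamma receptor, had 2671 ± 75.3 in resistant and 2329 ± 21.0 in parental cells (0.20, SE 0.04, limma adjusted p = 0.000257). IFNGR1, the ligand-binding chain of that receptor, lies on chromosome 6 and had 1396 ± 10.4 in resistant and 1326 ± 104 in parental cells (0.08, SE 0.06, limma adjusted p = 0.245), without passing. IFNLR1, the specific chain of the interferon lambda receptor, was scarce, with 24.9 and 14.3 normalized counts in resistant libraries against 2.90 and 1.99 in parental ones. That is 38 reads in resistant cells and 5 in parental cells, a read ratio of 7.86 (exact 95% counting interval 3.09 to 25.6). IFNLR1 reached the filter on low values through the resistant libraries alone, so it could enter the test only as a gene higher there, and no test is given. When a change above 1.2-fold was required, IFNGR2 (limma treat adjusted p = 1.00) and IL10RB (limma treat adjusted p = 0.105) no longer passed.

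The kinases showed little change. JAK1 had 9752 and 9676 normalized counts in resistant libraries, against 9756 and 9685 in parental libraries. The groups overlapped fully. Its log2 fold change was -0.000997 (SE 0.03, limma adjusted p = 0.981), and the 95% interval of the fold ran from 0.956 to 1.045. TYK2 had 4806 and 5129.5 normalized counts in resistant libraries, against 5487 and 5580.1 in parental ones. Both resistant libraries lay below both parental ones, by a margin similar to the distance between the resistant pair. The means were 4968 ± 229 in resistant and 5533 ± 66.1 in parental cells, which gave a log2 fold change of -0.16 (SE 0.04, limma adjusted p = 0.000670), with a fold interval of 0.850 to 0.947. The fall of TYK2 did not pass when a change above 1.2-fold was required (limma treat adjusted p = 1.00) or in edgeR with an assumed dispersion of 0.01 (edgeR adjusted p = 0.419). JAK1 (ENSG00000162434) lies on chromosome 1 from 64833229 to 64966504, and TYK2 (ENSG00000105397) on chromosome 19 from 10350529 to 10380676, both on the minus strand. JAK1 shares 4 exonic bases with RAVER2 and TYK2 shares none.

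STAT2, the interferon-specific STAT of ISGF3, gave the smallest p of the 9 genes. It had 6164 and 5965 normalized counts in resistant libraries, against 3383 and 3406 in parental libraries. The groups were far apart relative to their spread. The means were 6064 ± 141 in resistant and 3394 ± 16.3 in parental cells, which gave a log2 fold change of 0.84 (SE 0.04, limma adjusted p = 5.04e-17), or 1.79-fold with a 95% interval of 1.70 to 1.88. IRF9, the DNA-binding partner of STAT2, had 94.1 and 105 normalized counts in resistant libraries, against 88.9 and 91.5 in parental libraries. The resistant values were the higher ones, but the gap between the groups was smaller than the distance between the resistant libraries. Its log2 fold change was 0.14 (SE 0.17, limma adjusted p = 0.484), and the fold interval of 0.865 to 1.40 leaves room for a change in either direction. Per kilobase of merged exons, STAT2 stood 40.7 and 35.3 times above IRF9 in resistant libraries and 23.6 and 23.1 times in parental libraries.

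The count of IRF9 is also affected by how the genome is annotated. Of its exonic bases, 48.4% also belong to AL136295.5, a gene on the same strand that covers the whole IRF9 locus, from 24151218 to 24167402 on chromosome 14, while IRF9 (ENSG00000213928) runs from 24161053 to 24166565. Reads in shared exons can be left out or given to either gene depending on the annotation and settings used with featureCounts, which the sources used here do not give. AL136295.5 itself had 41.1 ± 1.49 normalized counts in the resistant and 36.2 ± 7.60 in the parental group, without passing the test (log2 fold change 0.20, SE 0.26, limma adjusted p = 0.527). Whether the overlap took reads from IRF9 was not tested, so the level of IRF9 and its ratio to STAT2 are uncertain. STAT2 (ENSG00000170581) lies on chromosome 12 from 56341597 to 56360155 on the minus strand and shares no exonic base with another gene.

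Promoter windows of 300 bases, from 250 before to 50 after the transcription start, were available for 6 of the 9 genes from RefSeq on GRCh38.p14. IFNAR2, IRF3 and IRF7 had no entry. JAK1 and IFNAR1 had more than a single window each. Each window was searched on both strands for the interferon-stimulated response element, written as GAAA, any 2 bases and GAAA again, and for the gamma-activated site bound by STAT dimers, TTCNNNGAA, which reads the same on both strands. The response element was found in none of these windows, against 3.57% of 35116 windows of all genes. The gamma-activated site was found in the single windows of IRF1 and IRF9 and in no window of the other genes. Among all windows, counted as windows and not as genes, 7.66% held it. Its first base lies at -124 from the start in IRF1 and at -63 in IRF9. The windows of IRF1 and IRF9 are shown for their matches, in capitals, and that of STAT2 because it rose most clearly, each 5' to 3' on the gene's strand. A match is a description of letters and not a binding site, and a window without one says nothing of the factor.
STAT2, chr12:56360058-56360357, minus strand: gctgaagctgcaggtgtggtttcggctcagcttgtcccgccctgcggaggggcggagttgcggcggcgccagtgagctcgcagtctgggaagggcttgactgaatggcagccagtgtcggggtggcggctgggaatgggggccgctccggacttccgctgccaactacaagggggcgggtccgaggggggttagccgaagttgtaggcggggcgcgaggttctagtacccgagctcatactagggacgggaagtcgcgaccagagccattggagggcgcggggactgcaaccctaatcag
IRF9, chr14:24161015-24161314, plus strand: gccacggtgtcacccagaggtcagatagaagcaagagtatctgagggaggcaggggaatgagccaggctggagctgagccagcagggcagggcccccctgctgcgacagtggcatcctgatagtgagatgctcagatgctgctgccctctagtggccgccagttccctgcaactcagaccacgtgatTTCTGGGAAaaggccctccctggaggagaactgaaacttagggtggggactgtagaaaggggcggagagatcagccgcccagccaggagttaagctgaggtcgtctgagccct
IRF1, chr5:132490724-132491023, minus strand: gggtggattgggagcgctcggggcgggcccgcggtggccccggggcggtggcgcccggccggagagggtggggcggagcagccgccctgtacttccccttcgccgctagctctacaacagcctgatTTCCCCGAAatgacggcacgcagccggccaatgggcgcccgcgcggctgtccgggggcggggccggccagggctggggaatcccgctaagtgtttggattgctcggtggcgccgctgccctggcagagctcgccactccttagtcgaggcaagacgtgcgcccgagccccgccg

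Among the regulatory factors upstream of the ligand, IRF7 rose and IRF3 fell. IRF7, the inducible factor that amplifies interferon production, had 629 and 583 normalized counts in resistant libraries, against 346 and 305 in parental libraries. The lowest resistant value was well above the highest parental value. Its means were 606 ± 32.2 in resistant and 326 ± 28.9 in parental cells, which gave a log2 fold change of 0.90 (SE 0.09, limma adjusted p = 8.85e-10), or 1.86-fold with a 95% interval of 1.64 to 2.11. The changes of IRF7 and IFNAR2 were close, and their order turned without resistant replicate 1 (0.84 for IRF7 and 0.93 for IFNAR2) and without parental replicate 2 (0.81 and 0.85). IRF3, the constitutive factor that is activated by phosphorylation, had 3858 and 3988 normalized counts in resistant libraries, against 4291 and 4423 in parental libraries. The groups did not overlap. The means were 3923 ± 92.1 in resistant and 4357 ± 93.5 in parental cells, which gave a log2 fold change of -0.15 (SE 0.04, limma adjusted p = 0.00106), with a fold interval of 0.853 to 0.951. Without parental replicate 2 the fall of IRF3 no longer passed (log2 fold change -0.13, limma adjusted p = 0.0625), nor did it against 1.2-fold (limma treat adjusted p = 1.00) or in edgeR with the assumed dispersion of 0.01 (edgeR adjusted p = 0.434). Per kilobase, IRF3 was 4.25 and 4.74 times as abundant as IRF7 in resistant libraries and 8.59 and 10.04 times in parental libraries.

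IRF1 had 1493 and 1440.4 normalized counts in resistant libraries, against 1516 and 1515 in parental libraries. The resistant values were slightly the lower ones, and the parental pair was nearly identical. The log2 fold change was -0.05 (SE 0.05, limma adjusted p = 0.427), with a fold interval of 0.900 to 1.04, and it did not pass. Of 5 further IRF genes looked for, only IRF2, an antagonist of IRF1, was measured, and it had 1727 ± 101 normalized counts in resistant and 1893 ± 62.5 in parental cells (-0.13, SE 0.05, limma adjusted p = 0.0235). The call of IRF2 was lost with DESeq2 (DESeq2 adjusted p = 0.102), without resistant replicate 1 (limma adjusted p = 0.175), without parental replicate 1 (limma adjusted p = 0.252) and with all libraries scaled to the same total (limma adjusted p = 0.0823). IRF3 (ENSG00000126456) lies on chromosome 19 from 49659569 to 49665875, IRF7 (ENSG00000185507) on chromosome 11 from 612553 to 615999 and IRF1 (ENSG00000125347) on chromosome 5 from 132481609 to 132490798, all on the minus strand. IRF3 shares 19.3% of its exonic bases with BCL2L12 and IRF1 22.0% with C5orf56, both on the opposite strand, and IRF7 shares none. BCL2L12 had 3762 ± 137 normalized counts in resistant and 3857 ± 68.2 in parental cells, close to the level of IRF3, so reads of the pair may be mixed, and C5orf56 had 76.2 ± 14.6 in resistant and 69.5 ± 15.3 in parental cells.

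The 3 genes whose values over the 4 libraries were most like those of IRF7, by Euclidean distance of centred log2 values among 13129 genes, were TMEM254 (distance 0.041), PNPLA7 (0.046) and AC083799.1 (0.060).

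Levels of different genes were compared per kilobase of merged exons. In resistant cells JAK1 led at 1538 ± 8.50 normalized reads per kilobase, followed by IRF3 (1034 ± 24.3), STAT2 (993 ± 23.0), IFNAR1 (843 ± 24.2), TYK2 (733 ± 33.8), IRF7 (231 ± 12.2), IFNAR2 (191 ± 8.69), IRF1 (188 ± 4.80) and IRF9 (26.2 ± 2.02). Neighbours in that order were apart in both libraries, except IFNAR2 and IRF1, whose values overlapped. In parental cells the order was JAK1 (1539 ± 7.97), IRF3 (1148 ± 24.6), TYK2 (817 ± 9.76), IFNAR1 (596 ± 1.45), STAT2 (556 ± 2.67), IRF1 (194 ± 0.0807), IRF7 (124 ± 11.0), IFNAR2 (104 ± 3.36) and IRF9 (23.8 ± 0.469), with no overlap between neighbours. STAT2 stood below TYK2 and IFNAR1 in parental cells and above both in resistant cells. The lengths include exons shared with another gene on the same strand, 44.2% of the exonic bases of IFNAR2 and 48.4% of those of IRF9. How reads in such exons were counted is not known, so the place of IFNAR2 in both orders and the level of IRF9 are uncertain.

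**Figure D2:**
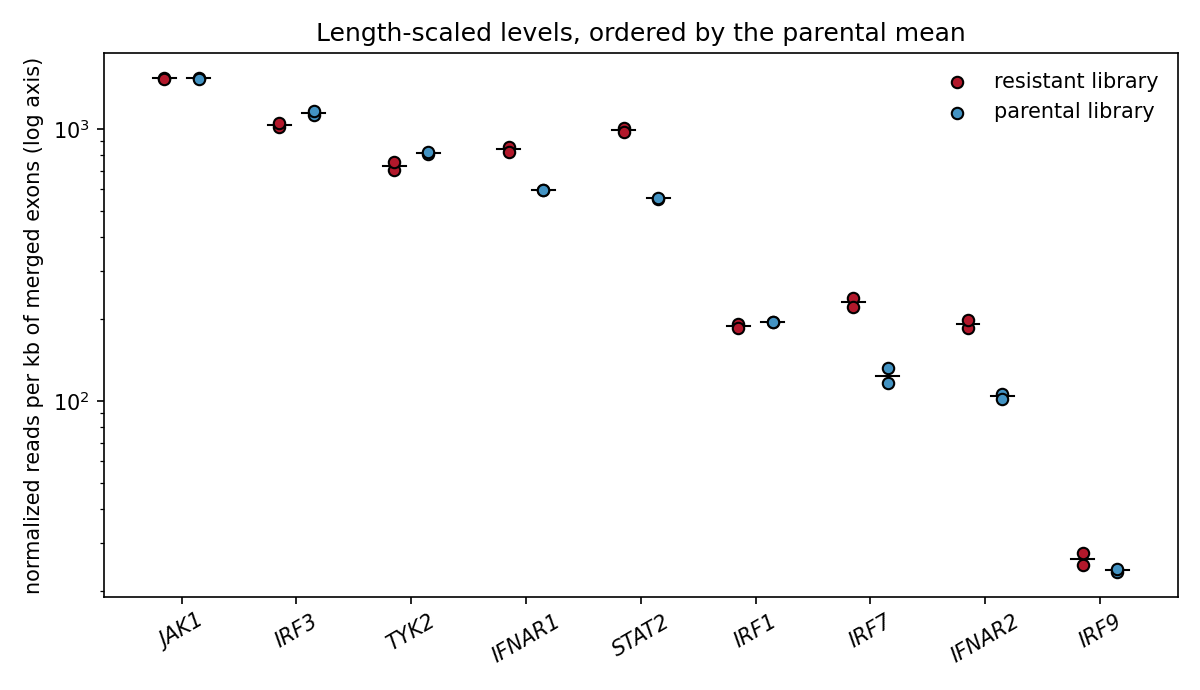
Normalized reads per kilobase of merged exons (vertical log axis) of the 9 genes, ordered by the parental mean. Exons shared with other genes are included in the lengths, so the place of IFNAR2 is uncertain. Points are libraries, resistant left of parental, and short lines are group means; STAT2 sits at 993 in resistant cells and 556 in parental cells, and IRF9 lies lowest in both groups.

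Several of these genes lie where most neighbouring genes moved in the same direction as each other. By the same test 32.7% of all genes rose and 34.2% fell. For each gene, the median log2 fold change of the 10 tested genes on each side was taken. Around TYK2, 14 of 20 neighbours fell and 2 rose (median -0.51), so that TYK2 was lower than in parental cells but higher than most of its neighbours. After the neighbour median was subtracted TYK2 stood at 0.35 (limma adjusted p = 6.17e-09, which takes the median as known). Around IRF3, 13 of 20 neighbours fell and 1 rose (median -0.31). IRF3 stood at 0.16 after subtraction (limma adjusted p = 0.000764, again with the median taken as known). TYK2 lay above 16 of its 20 neighbours, but IRF3 above only 12 of 20, whose values ran from -1.355 to 0.951. Both falls therefore turned into rises relative to the neighbour median, by a test that leaves out the spread of the neighbours. IRF7 rose in a stretch where 14 of 20 neighbours fell and 2 rose (median -0.52), and its value relative to them was 1.41. STAT2 rose where 17 of 20 neighbours rose and 1 fell (median 0.50), and its value relative to them was 0.34. The receptor genes lay above neighbours with a median of 0.11, IFNAR1 by 0.39 and IFNAR2 by 0.77. Each is among the other's neighbours, with IL10RB (0.37), IFNGR2 (0.20) and IL10RB-DT (1.41), which also rose. Of 20 neighbours, 11 rose and 4 fell around IFNAR1, and 10 rose and 4 fell around IFNAR2. Counted in either direction, calls around the receptor genes were about as frequent as among all genes (66.9%). JAK1, IRF1 and IRF9 had neighbour medians of 0.06, -0.09 and 0.08 and differed from them by -0.06, 0.04 and 0.06. Relative to neighbour medians taken as known, 6 of the 9 genes were called higher and 0 lower by limma, against 31.5% and 33.1% of 17762 genes treated the same way. No measure of gene copy number was used here.

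**Figure D3:**
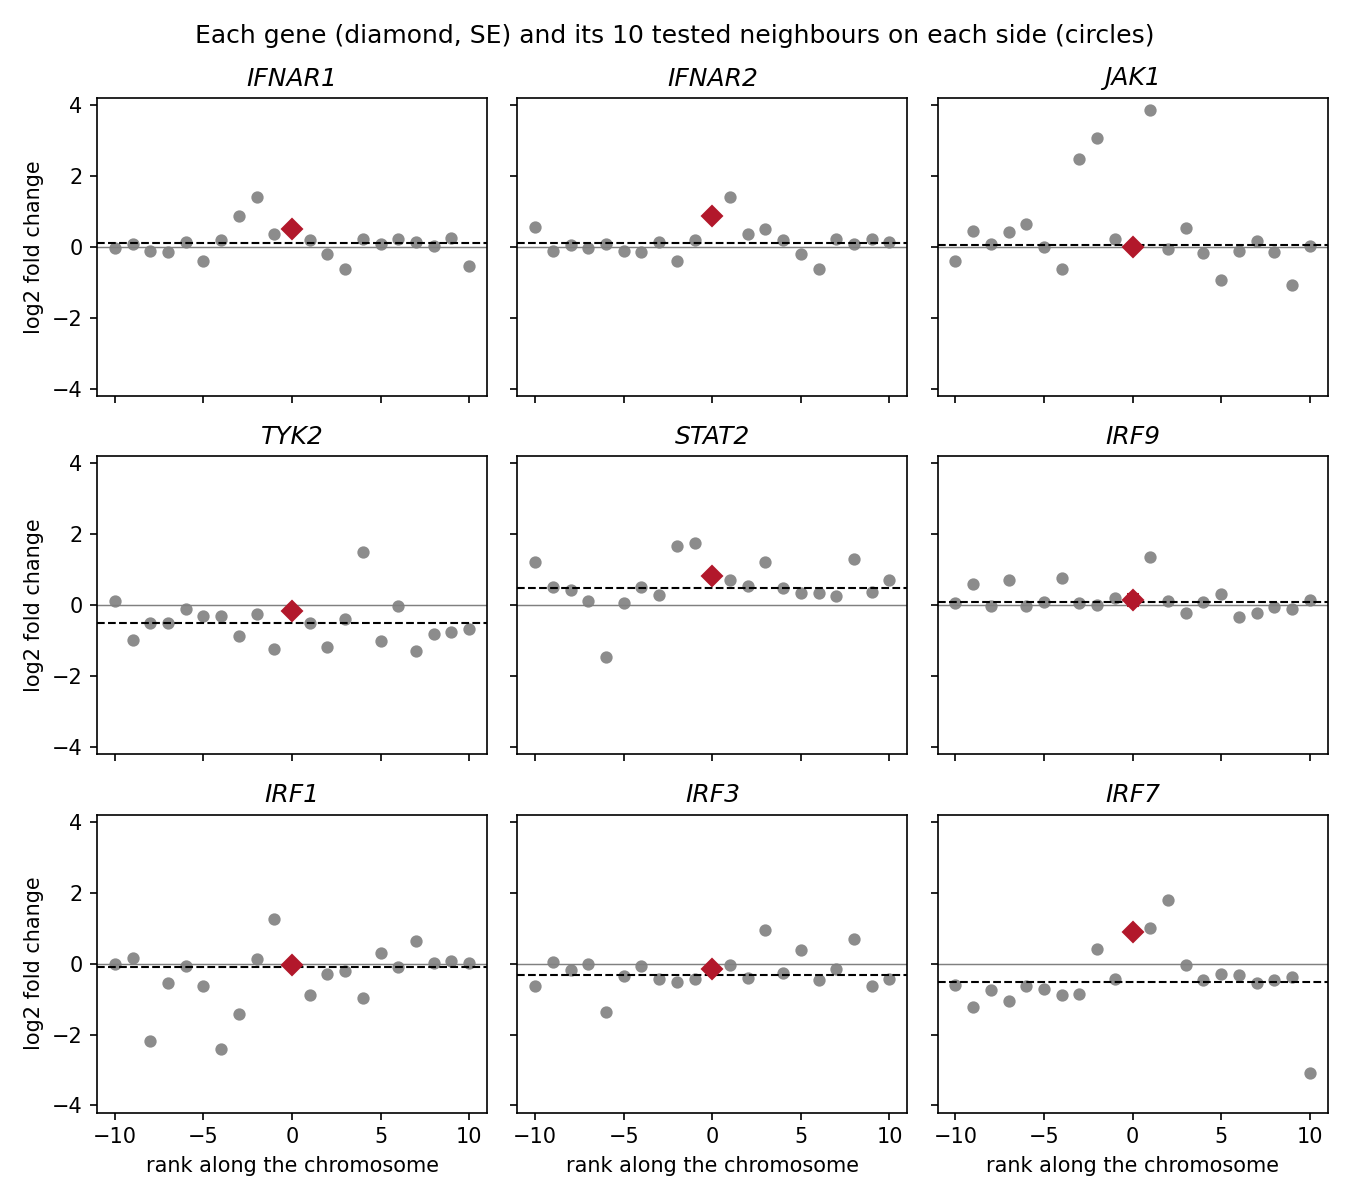
Log2 fold changes of resistant over parental cells (vertical axes) for each of the 9 genes (diamond, with SE, at rank 0) and the 10 tested genes on each side of it (circles, horizontal axis in ranks along the chromosome). Dashed lines are neighbour medians; TYK2 (-0.16) and IRF3 (-0.15) lie above medians of -0.51 and -0.31, and IRF7 (0.90) lies far above a median of -0.52.

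Of 10 interferon ligand genes looked for, 1 was measured. IFNL1, a type III interferon, had 57.4 and 55.4 normalized counts in resistant libraries, against 6.77 and 2.98 in parental libraries. These are 111 reads in resistant cells and 10 in parental cells, a read ratio of 11.5 (exact 95% counting interval 6.02 to 24.6). IFNL1 too reached the filter through the resistant libraries alone, and no test is given. The counting intervals cover counting error only. The other ligand genes looked for were not found by symbol among the genes measured, whose smallest mean value was 9.98. No level of a type I ligand gene is therefore given.

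Sensors and adaptors that lead to IRF3 moved in both directions, as did genes at large, with 6 of 11 higher, 4 lower and 1 not past the threshold (median 0.22). These are 54.55% higher and 36.4% lower, against 32.7% and 34.2% of all genes. Among those that rose were the DNA sensor IFI16 (11916 ± 194 normalized counts in resistant and 4665 ± 101 in parental cells, log2 fold change 1.35, SE 0.03), TMEM173, the gene of the adaptor STING (5505 ± 132 in resistant and 2733 ± 27.5 in parental cells, 1.01, SE 0.04), and the RNA sensor genes DHX58 (1.60, SE 0.07) and IFIH1 (0.95, SE 0.04). Those that fell were named after their values were seen. TICAM1, the adaptor of the RNA receptor TLR3, had a log2 fold change of -0.94, MAVS, the mitochondrial adaptor of RNA sensors, one of -0.83, TLR3 one of -0.56 and TRAF3, a ubiquitin ligase of these routes, one of -0.17. The neighbour medians of MAVS and TLR3 were -0.70 and -0.49, and those of TICAM1 and TRAF3 -0.35 and -0.03. Among the named genes that rose, DHX58 had a neighbour median of 0.75. Those of IFI16, TMEM173 and IFIH1 were -0.03, -0.01 and -0.006. CGAS, the enzyme upstream of STING, did not pass (0.01, limma adjusted p = 0.924).

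Of 6 other JAK and STAT genes that reached the filter in both groups 5 rose and 1, JAK2 (named after its value was seen), did not pass (-0.16, limma adjusted p = 0.0569). The median of these genes was 0.58, and by the same test 32.7% of all genes were higher and 34.2% lower. STAT6, the interleukin 4 transducer, had 13289.6 ± 155 normalized counts in resistant and 6989.6 ± 37.6 in parental cells, which gave a log2 fold change of 0.93 (SE 0.03). STAT3, the interleukin 6 transducer, had 17095 ± 236 in resistant and 11846 ± 21.6 in parental cells (0.53, SE 0.03). STAT5A had 220 ± 27.9 in resistant and 33.8 ± 4.19 in parental cells (2.67, SE 0.18). STAT6 lies in a stretch like that of STAT2, with a neighbour median of 0.49.

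Of 16 negative regulators of the pathway, 8 were lower, 3 higher and 5 not past the threshold (median -0.09). That is 50% lower and 18.75% higher, against 34.2% and 32.7% of all genes. The suppressor of cytokine signalling genes SOCS6 (1107 ± 17.0 normalized counts in resistant and 1960 ± 108 in parental cells, log2 fold change -0.82, SE 0.05) and SOCS5 (1983 ± 15.0 in resistant and 3292 ± 51.6 in parental cells, -0.73, SE 0.04) fell, as did PTPN1 (7024 ± 157 in resistant and 10605 ± 18.3 in parental cells, -0.59, SE 0.03), the gene of a phosphatase that acts on JAK kinases. SOCS1, the chief inhibitor of JAK1 and TYK2, also fell (-0.68), and USP18, which blocks the receptor at IFNAR2 and is itself induced by interferon, rose (0.65); these last genes were picked with their values in view. The phosphatase gene PTPN11 rose (0.37, SE 0.03) but had a value of -0.10 relative to its neighbours (limma adjusted p = 0.00695). With a change above 1.2-fold required, 4 of the 16 were lower, against 18.6% of all genes. With the dispersion fixed at 0.01 also 4 were lower, against 21.2% of all genes.

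Downstream, 31 of 39 type I response genes were higher, 4 were lower and 4 stayed short of the threshold (median 0.69), in a list drawn up with such rises in these data known. These are 79.5% higher and 10.3% lower, against 32.7% and 34.2% of all genes. IFIT1, an antiviral effector, rose by 1.46 (SE 0.03) in a stretch with a neighbour median of 0.76, and PARP9, a gene of interferon-linked ADP-ribosylation, had 6047 ± 163 in resistant and 2908 ± 18.9 in parental cells (1.06, SE 0.04). IFITM2 (-1.08, SE 0.03), which shares 22.7% of its exonic bases with IFITM1, and LGALS3BP (-1.42, SE 0.03) fell, and LGALS3BP did not pass relative to its neighbours (-0.02, limma adjusted p = 0.599). Of 17 genes of the interferon gamma and IRF1 response that reached the filter in both groups, 9 were higher, 1 lower and 7 not past the threshold (median 0.22). GBP1, a guanylate-binding protein gene, had 1036 ± 10.7 in resistant and 301 ± 12.1 in parental cells (1.78, SE 0.08), the immunoproteasome genes PSMB8 and PSMB9 rose by 0.84 (SE 0.05) and 0.90 (SE 0.06), and B2M, the light chain of class I molecules, by 0.41 (SE 0.03). PSMB8 shares 20.6% of its exonic bases with its antisense gene PSMB8-AS1. In all, 56 of 93 pathway genes that reached the filter in both groups rose and 18 fell, while 5 more reached it in the resistant libraries alone. Of these, 31 of the 56 rises and 4 of the 18 falls come from the type I list, drawn up with such rises known. The pooled counts also mix in negative regulators and are not a test of the pathway. The shares of all genes that rose and fell by this test were 32.7% and 34.2%.

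**Figure D4:**
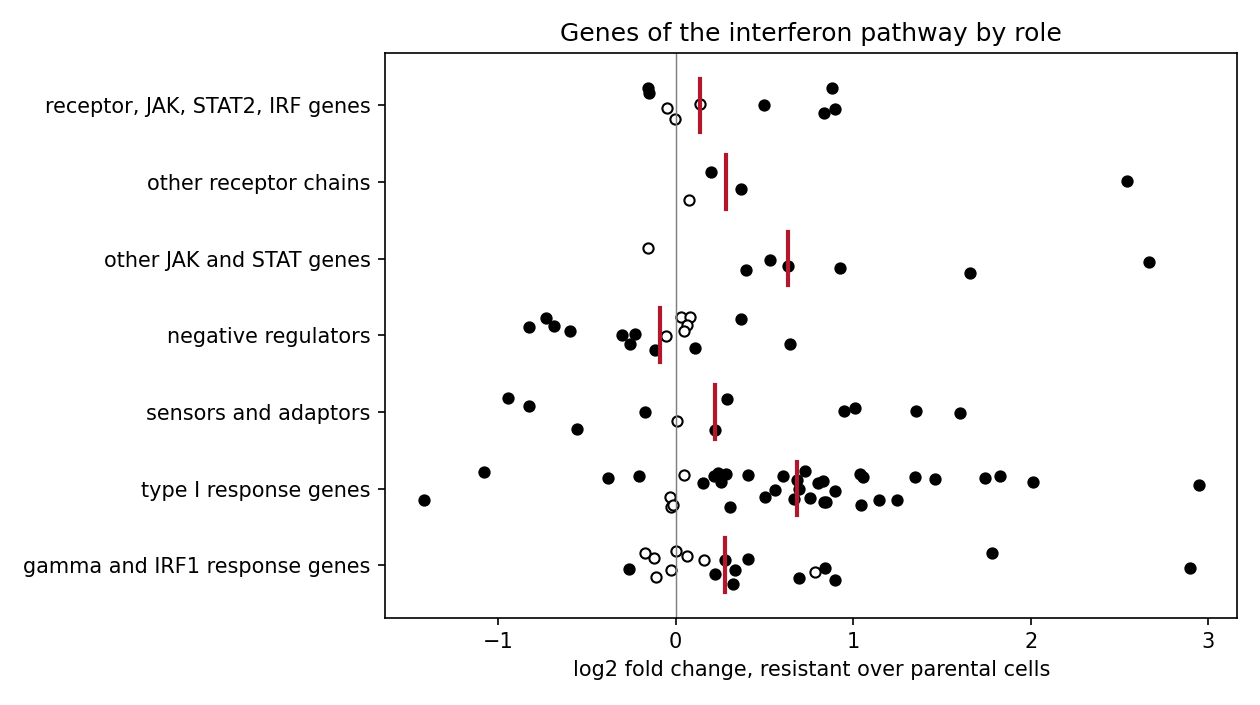
Log2 fold changes of resistant over parental cells (horizontal axis) for genes of the interferon pathway grouped by role (rows). Filled points passed the limma test and open points did not, and red lines are medians, which in the 7 groups drawn run from -0.09 for negative regulators to 0.69 for type I response genes; 4 of the points, all counted in their medians, are genes that reached the filter on low values in the resistant libraries alone.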

How the data were processed

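Gene-level values of 4 RNA libraries from RD cells, 2 vincristine-resistant and 2 parental, were grouped by the sample titles. The submitters' processing notes name bcl2fastq 2.17, STAR 2.5.2b, Subread 1.5.2 with featureCounts, DESeq2 and the build GRCh38. Annotation and strand setting were not stated there. Each library column deposited by the authors is a signal of normalized counts, gene counts divided by one size factor (0.924 and 1.05 for resistant, 1.03 and 1.01 for parental libraries). Dividing each column by its step gave whole reads for 100% of entries (tolerance 0.01) in all 4 libraries. The step of parental library 2 lies so close to 1 that recovery is less certain there, so tests on reads served only as alternatives. The log2 fold changes, p-values and adjusted p-values of the authors' deposited table were used only for comparison. The smallest mean value in the table was 9.98, so weaker genes lie outside it.

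Genes with at least 10 in at least 2 libraries were fitted with limma 3.58.1 (trend) in R 4.3.3 on log2(value + 1) by group alone, which can understate changes of weak genes. The fit was checked on simulated data. Alternatives were edgeR 4.0.16 and DESeq2 1.42.0 on the recovered reads, other pseudocounts, filters and scalings, a replicate block, each library left out, a required change of 1.2-fold, a dispersion fixed at 0.01, and subtraction of the neighbour median. That median was taken as known, so p-values after subtraction leave out the spread of the neighbours. Edges of exons come from GENCODE 29, which holds 96.9% of the identifiers. Exact 95% intervals are Clopper-Pearson. Members and lists were chosen with earlier results of these data known. All 9 members are named, then per list up to 4 genes by smallest adjusted p, and the most abundant marker of each marker list. Some genes so chosen are not reported here.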

Additional observations from a re-analysis of the deposited data

How the results depend on the processing

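The 4 rises (IFNAR1, IFNAR2, STAT2, IRF7) passed in all 15 alternatives, and JAK1, IRF1 and IRF9 passed in none. The 2 falls were the weak calls. Their count was 0 with a change above 1.2-fold, 0 with the dispersion fixed at 0.01 and 0 relative to neighbours, where TYK2 (0.35) and IRF3 (0.16) reversed, and it was 1 to 2 with each library left out. IRF1 (0.0397), IRF2 (0.0161) and PTPN11 (-0.10) also reversed relative to neighbours; the cause was not tested. JAK1, close to no change, reversed with TMM (0.00120), equal totals (0.0322), edgeR (0.00117), the fixed dispersion (0.00123), without parental replicate 1 (0.00428) and without resistant replicate 2 (0.00464), its leave-one-out range being -0.00663 to 0.00464, as did IFNGR1 without parental replicate 1 (-0.00375). Over all genes, 3380 were higher and 3414 lower against 1.2-fold, and 3880 lower with the fixed dispersion. The pathway genes then had 9 and 10 lower. With each library left out, the log2 fold change ran from 0.47 to 0.53 for IFNAR1 and from 0.83 to 0.93 for IFNAR2. That of STAT2 ran from 0.81 to 0.86 and that of IRF7 from 0.81 to 0.99. In fits without 1 library, the lone library was assumed to vary like the other group. The resistant pair varied more than the parental pair, with a mean chi-square per gene on reads of 3.99 against 1.60. Same-numbered libraries did not deviate together over all genes (correlation -0.03). This single value cannot show whether some genes varied with a shared culture or preparation. With a replicate block 5926 genes were higher and 6218 lower, 4 and 2 of the 9, and 59 and 18 of all 98 pathway genes. Of those 98, 5 reached the filter on low values in the resistant libraries alone, so they could be called only higher. No scaling moved the median of all genes by over 0.1. Depth limits IRF9, IFNL1 and IFNLR1.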
